A study of Mus musculus with 6 samples.

Results

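A set of 9 genes of the red blood cell was followed through the RNA-seq libraries of sorted neural progenitor cells (NPCs). They are the 3 embryonic globins Hbb-y, Hbb-bh1 and Hba-x, the 4 adult globins Hba-a1, Hba-a2, Hbb-bs and Hbb-bt, and the 2 erythroid genes Alas2 and Slc4a1. These 9 of 51733 gene symbols in the count tables were chosen by their CPM in control and Ybx1-KO libraries, as a readout of embryonic stage from the blood that came with the samples. Their difference between those groups is therefore given as a description, and the calls of the fit over all genes, printed once further on, are no evidence for it. All 9 passed the filter on low values and were among the 21330 genes tested. With a filter that takes a high mean in either group, passing it says nothing further about them.

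The study compared 3 control libraries, labelled wildtype and named here A, B and C, with 3 libraries of Ybx1-KO NPCs, named D, E and F. Per the study's methods, Ybx1-KO embryos were Ybx1tm1Ley/Ybx1tm1Ley, homozygous for a null allele, and controls were their siblings. The labels give C57BL/6 as the strain and E13.5 as the embryonic stage, and mice of both sexes were used. Neural tubes were dissociated, and cells expressing an eGFP reporter under the control of Sox2 (Sox2tm1Hoch), a transcription factor of NPCs, were sorted, in both groups. The study's methods list the reporter line on a mixed strain background, so the embryos may not be purely C57BL/6. The labels do not say whether each library came from its own embryo, so errors and p-values refer to these libraries only.

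Mammalian hemoglobin is a tetramer of alpha-like and beta-like globin chains, each holding a heme group that binds oxygen. In the mouse, the first red cells arise in the yolk sac and make embryonic chains, zeta from Hba-x and epsilon-y and beta-h1 from Hbb-y and Hbb-bh1. Red cells made later in the fetal liver carry adult chains, from Hba-a1 and Hba-a2 and from Hbb-bs and Hbb-bt. In the days around midgestation the circulating blood passes from the first population to the second, and within the primitive red cells Hbb-bh1 declines before Hbb-y.

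The beta-like genes lie side by side on the minus strand of chromosome 7, in GENCODE M21 on GRCm38. Hbb-bt spans 103812524 to 103813996, Hbb-bs 103826534 to 103828096, Hbb-bh1 103841637 to 103843164 and Hbb-y 103851749 to 103853216. On the plus strand of chromosome 11 follow Hba-x from 32276400 to 32278116, Hba-a1 from 32283511 to 32284465 and Hba-a2 from 32296489 to 32297298. Alas2 is on chromosome X from 150547375 to 150570638, overlapping annotations of Apex2 and Mir3620, and Slc4a1 is on chromosome 11 from 102348824 to 102366203.

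How far reads can tell these genes apart is seen from their coding sequence. The first 90 coding bases of 5 globins from GENCODE M21 transcripts are shown, because the embryonic-to-adult comparison depends on assigning reads to the right copy. Capitals mark bases that differ from Hbb-bs in the beta-like genes and from Hba-a1 in Hba-x.
Hbb-bs: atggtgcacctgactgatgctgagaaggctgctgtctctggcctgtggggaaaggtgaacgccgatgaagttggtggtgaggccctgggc
Hbb-y: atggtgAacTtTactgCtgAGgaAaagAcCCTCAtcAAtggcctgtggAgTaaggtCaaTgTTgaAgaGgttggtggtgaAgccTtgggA
Hbb-bh1: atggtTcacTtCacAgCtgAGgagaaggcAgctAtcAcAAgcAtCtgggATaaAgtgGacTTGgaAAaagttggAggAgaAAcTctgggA
Hba-a1: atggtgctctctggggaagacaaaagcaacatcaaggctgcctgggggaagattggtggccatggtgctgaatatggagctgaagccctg
Hba-x: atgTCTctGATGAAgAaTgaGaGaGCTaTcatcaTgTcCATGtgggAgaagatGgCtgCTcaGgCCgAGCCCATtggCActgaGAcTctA
Over the whole coding sequence, Hbb-y differed from Hbb-bs at 113 of 441 bases and Hbb-bh1 at 115. Hba-x differed from Hba-a1 at 163 of 426 bases. No stretch of 100 bases, the read length, in the embryonic globin transcripts occurred in another globin. The adult copies could hardly be separated from each other, since Hbb-bs and Hbb-bt differed at 1 coding base and so did Hba-a1 and Hba-a2, with 0 differences in the stretch shown. Between 54.8% of such stretches in Hbb-bt and 74.5% in Hba-a2 were shared with the other copy. Counts within an adult pair are therefore uncertain, and comparisons below rest on embryonic against adult genes. Adult levels may also be too low beside embryonic ones, since pairs tallied as not unique were counted on no gene. Such pairs made up 20.1% of those tallied in A to 35.6% in E, and how many came from globins was not examined.

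The stretches before the starts of 4 members are given for reference, from RefSeq (GRCm38.p6), since adult genes moved together between libraries and embryonic ones in part apart from them. Capitals mark CACCC, GATA and CCAAT on either strand, the letters known as elements of globin promoters. CCAAT read on the other strand is the core of the Y-box after which Ybx1 is named. The bases are those in the 130 before the RefSeq start that lie in no GENCODE exon.
Hbb-y, chr7:103853217-103853337, minus strand: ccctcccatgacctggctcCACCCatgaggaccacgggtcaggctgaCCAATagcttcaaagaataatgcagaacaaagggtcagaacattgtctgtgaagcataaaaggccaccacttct
Hbb-bs, chr7:103827929-103828011, minus strand: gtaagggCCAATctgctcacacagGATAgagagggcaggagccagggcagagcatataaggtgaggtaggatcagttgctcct
Hba-a2, chr11:32296362-32296488, plus strand: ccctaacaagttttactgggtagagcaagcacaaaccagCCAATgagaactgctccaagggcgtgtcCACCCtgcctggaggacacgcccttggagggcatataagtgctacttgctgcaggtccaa
Alas2, chrX:150547287-150547374, plus strand: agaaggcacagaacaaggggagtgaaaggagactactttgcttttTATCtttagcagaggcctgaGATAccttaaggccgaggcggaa
Entries were found for 7 of the 9 members, all but Hbb-bh1 and Slc4a1. CACCC occurred in the 130-base window of all 7 of these. CCAAT occurred in those of Hbb-y, Hba-a1, Hba-a2, Hbb-bs and Hbb-bt, and GATA in those of Hba-x, Hbb-bs, Hbb-bt and Alas2. Among all 32851 RefSeq windows of this length, 33.7% held CACCC, 31.7% GATA and 22.4% CCAAT. A match of letters is a description and not a binding site.

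The libraries differed in depth and in quality. Counts on genes came to 20841990, 23883542 and 21574427 in A, B and C, and to 8483075, 13321952 and 4743279 in D, E and F. At these depths 3 counts stood for 0.140 to 0.152 CPM, the counts scaled to library size with TMM factors, in the controls and 0.312 to 0.426 in Ybx1-KO. Library F stood apart, with 59.5% of its tallied read pairs outside genes, against 30.6 to 46.7% in the other 5. It also held 3.67 counts per kilobase on 1500 olfactory, vomeronasal and taste receptor genes, which NPCs are not known to use, against 0.0389 to 0.357 elsewhere. The deleted gene, Ybx1, was at 238.5 CPM in A, 531 in B and 306 in C, compared with 126 in D, 55.3 in E and 9.66 in F. Every Ybx1-KO library was below every control, although D still held 1112 counts. These are counts over the whole gene, and where in it the remaining reads lay was not examined. Its log2 fold change, given here as Ybx1-KO minus control, was -2.49 (SE 0.68, Benjamini-Hochberg adjusted p = 0.301 from the edgeR quasi-likelihood fit). Here and below, the SE is the size of the log2 fold change divided by the square root of that fit's F statistic. The fit draws on the spread of all genes, so a gene's own spread between libraries can be wider than its SE.

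Red cell RNA was present in every library, and the largest contrast lay in the adult beta-like globins. Hbb-bs stood at 603 and 191 CPM in control libraries A and C and between 4.97 and 20.3 CPM in control B and the Ybx1-KO libraries, while embryonic Hbb-y varied without order between the groups. The embryonic share of the beta-like counts was thus 19.4 and 32.3% in A and C and 93.4 to 96.8% in B, D, E and F. In this share and in the adult beta-like genes control B thus lay within the range of the Ybx1-KO libraries, and the groups overlapped for each of the 9 genes. Fewer red cells and less RNA per cell cannot be told apart in such bulk libraries.

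**Figure D1:**
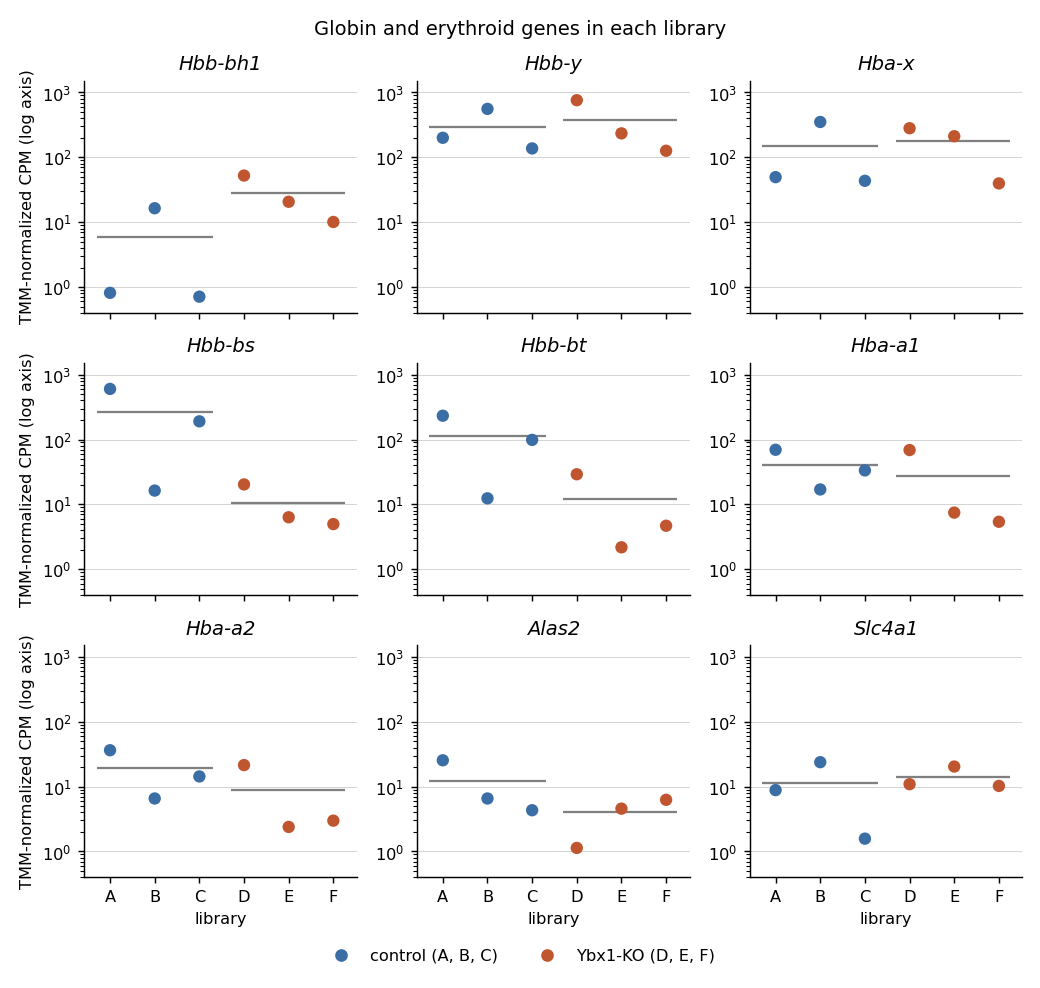
TMM-normalized CPM (vertical, log axis) of the 9 genes in each library (horizontal), with controls A to C in blue, Ybx1-KO D to F in orange, and grey lines at the group means (n = 3). For Hbb-bs and Hbb-bt, A and C stand above the other 4 libraries, whereas for Hbb-bh1 they stand below them, and control B lies among the Ybx1-KO libraries in each of these.

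Among the embryonic chains, Hbb-y, the epsilon-y gene, was the most abundant. Its level was 200.1 CPM in A, 558 in B and 137 in C, compared with 759 in D, 234 in E and 126 in F. The highest and lowest library were both Ybx1-KO, so the groups overlapped throughout, with control and Ybx1-KO means of 298.5 ± 227 and 373 ± 339 (SD, n = 3 each). The log2 fold change was 0.32 (SE 0.64). Without control C or without Ybx1-KO D it changed sign, with values over all alternatives from -0.78 to 1.15.

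Hbb-bh1, the beta-h1 gene that is switched off first, had the lowest counts of the globins in controls A and C, though not in B. It was at 0.816 CPM in A and 0.711 in C, from 17 and 14 counts, and at 16.4 in B. The Ybx1-KO libraries held 52.4 CPM in D, 20.7 in E and 10.1 in F, so that B lay between E and F. Group means were 5.98 ± 9.04 and 27.7 ± 22.0 CPM (SD, n = 3 each), a log2 fold change of 2.21 (SE 0.91). The controls spanned 23.1-fold, more than the 4.63-fold between the group means. Without control B the log2 fold change was the largest of all alternatives, at 5.17.

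Hba-x, the zeta gene and the only embryonic alpha-like chain, was highest in a control. It measured 49.5 CPM in A, 351 in B and 43.5 in C, compared with 281 in D, 212 in E and 39.6 in F. The lowest was library F, close to A and C, and the order of the libraries did not follow genotype. Means were 148 ± 176 in control and 177 ± 124 in Ybx1-KO NPCs (SD, n = 3 each), with a log2 fold change of 0.26 (SE 0.73). Leaving out A, C or D turned its sign, and without B it was 1.93.

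The adult beta-like genes, which make the beta chains of fetal liver and adult red cells, carried the widest contrast. Hbb-bs was at 603 CPM in A, 16.3 in B and 191 in C, compared with 20.3 in D, 6.33 in E and 4.97 in F. Library D was above control B, so the groups overlapped despite means of 269.9 ± 301 in control and 10.5 ± 8.48 in Ybx1-KO NPCs (SD, n = 3 each). Its log2 fold change was -4.67 (SE 0.93), while the controls alone spanned 36.9-fold. The near-identical Hbb-bt followed the same order of libraries at the top, with 233 CPM in A and 98.8 in C. It was at 12.4 in B, 29.1 in D, 2.18 in E and 4.69 in F, again with D above B. The log2 fold change of Hbb-bt was -3.25 (SE 0.90), and neither gene changed sign under any alternative. In library F, the 35 counts of Hbb-bs were 12.4 times what the receptor rate per kilobase would give for its length, so the low level there was above that background.

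For the adult alpha-like genes the groups stood closer together. Hba-a1 was at 69.5 CPM in A, 17.0 in B and 33.4 in C, compared with 68.8 in D, 7.48 in E and 5.40 in F. Ybx1-KO D was at nearly the level of A, the highest control, and the log2 fold change was -0.55 (SE 0.73). It was 0.12 without control A and -2.63 without Ybx1-KO D. Hba-a2, whose reads are in part those of Hba-a1, was at 36.3 CPM in A, 6.55 in B and 14.3 in C, compared with 21.4 in D, 2.39 in E and 2.98 in F. The same libraries were high and low, with a log2 fold change of -1.09 (SE 0.74) that was -2.83 without D and -0.22 without A.

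The erythroid pair did not share a direction. Alas2 encodes the red cell form of the first enzyme of heme synthesis. Its level was 25.4 CPM in A, 6.55 in B and 4.32 in C, compared with 1.13 in D, 4.57 in E and 6.25 in F. Library A alone stood out, and D, with 10 counts, was lowest, giving a log2 fold change of -1.61 (SE 0.75), which was -0.44 without A. Slc4a1, band 3, the chloride-bicarbonate exchanger of the red cell membrane, was at 8.83 CPM in A, 23.8 in B and 1.58 in C, compared with 10.9 in D, 20.4 in E and 10.2 in F. Control C was the lowest and control B the highest, and the log2 fold change of 0.28 (SE 0.68) changed sign without C or without E. In library F the counts of Alas2 were 4.99 times and those of Slc4a1 4.01 times the receptor background for their length, the closest approach to it among the 9 genes.

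Because the contrast chose these genes, the following counts carry no weight as evidence. At adjusted p-values under 0.05 and changes beyond 1.5-fold, edgeR called 0 of the 9, as it did 0% of all genes tested. At an unadjusted p below 0.05 there were 4 of 9 (Hbb-bs, Hbb-bt and Alas2 lower, Hbb-bh1 higher), against 11.2% of all genes tested. limma-voom called 0 of the 9 and 0% of all genes, and DESeq2 called Hbb-bs, against 1.00% of all genes. The groups did not overlap in 0 of the 9, against 4.99% of tested genes with every Ybx1-KO library higher and 8.16% with every one lower. The median log2 fold change of the 9 was -0.55 and that of all tested genes 0.31. These calls changed with the filter and with single libraries. With no filter on low counts edgeR called Hbb-bh1, Hbb-bs and Hbb-bt, against 0.451% of all genes then tested, and without control B it called these 3 too, against 0.333%. Without Ybx1-KO D it called both adult pairs (0.502% of all genes) and without E Hbb-bs and Hbb-bt (1.97%). With the filter then applied again, edgeR called Hbb-bh1 too without E (3.89%). Without F it called Hbb-bs (0.258%), with 0 called if the filter was then applied again.

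Shares within a library need no scaling between libraries, and they set out the balance of embryonic and adult globins most directly. Every library is labelled E13.5, and the study's introduction names failed blood formation in mouse embryos depleted of Ybx1. Whether the shares reflect stage or an effect of Ybx1 on red cells was not tested. Hbb-y and Hbb-bh1 together made up 19.4% of the 21601 beta-like counts in control A (95% exact Clopper-Pearson interval 18.9 to 19.9) and 32.3% of 8413 in C (31.3 to 33.3). In control B they made up 95.2% of 12894 counts (94.9 to 95.6). The Ybx1-KO libraries had 94.3% in D (93.7 to 94.8), 96.8% in E (96.0 to 97.4) and 93.4% of 1028 counts in F (91.7 to 94.8). Thus B fell within the range of the Ybx1-KO libraries, and A and C lay far below all others. These intervals cover counting error only, as the reads carry no molecular identifiers. The means were 49.0 ± 40.6% in control and 94.8 ± 1.76% in Ybx1-KO NPCs (SD, n = 3 each), 45.8 points apart. That difference was 69.0 points without B, and between 31.1 and 46.5 points without any single one of the other 5 libraries.

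**Figure D2:**
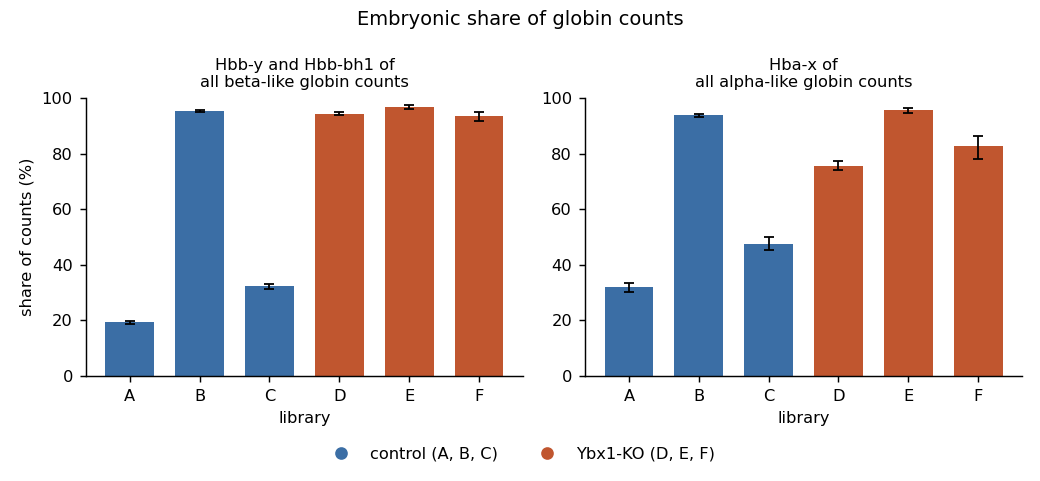
Embryonic share (vertical, % of counts) of the beta-like globins (left) and of the alpha-like globins (right) in each library, with 95% exact Clopper-Pearson intervals as error bars, controls A to C in blue and Ybx1-KO D to F in orange. Controls A and C hold the lowest bars in both panels, at 19.4 and 32.3% for beta-like and 31.9 and 47.7% for alpha-like genes.

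The alpha-like genes gave the same order at the low end. Hba-x made up 31.9% of 3238 alpha-like counts in A (30.3 to 33.5), 93.7% of 7999 in B (93.2 to 94.2) and 47.7% of 1796 in C (45.3 to 50.0). In the Ybx1-KO libraries its share was 75.7% in D (74.2 to 77.2), 95.5% in E (94.6 to 96.4) and 82.5% of 338 counts in F (78.1 to 86.4). Control B lay above D and F, and A and C again below the rest. The means were 57.7 ± 32.1% and 84.6 ± 10.1% (SD, n = 3 each), 26.8 points apart, with 44.8 points without B and 13.9 points without A.

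The embryonic share of the alpha-like genes was above that of the beta-like genes in A and C and below it in the other 4 libraries, though in E within overlapping counting intervals. The gap was widest in Ybx1-KO D, where the embryonic share was 75.7% of the alpha-like counts but 94.3% of the beta-like counts, with counting intervals that lay far apart. Per kilobase of exon, the embryonic shares in D were 71.9% for alpha-like and 95.0% for beta-like genes. Subtracting each library's receptor background moved the alpha-like share most in F, to 83.7%, and the beta-like share of F to 93.9%.

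Within the embryonic beta-like genes, the balance of Hbb-bh1 and Hbb-y did not overlap between the groups. Hbb-bh1 made up 0.406% of these counts in A (0.237 to 0.649), 2.86% in B (2.57 to 3.17) and 0.516% in C (0.282 to 0.864). The Ybx1-KO libraries had 6.45% in D (5.90 to 7.05), 8.11% in E (7.06 to 9.26) and 7.40% in F (5.82 to 9.24). All Ybx1-KO libraries thus lay above all controls, as they did in CPM for 4.99% of all genes tested. In the embryonic, Alas2, Hbb-bt and Hba-a2 shares the groups overlapped. The interval of B, the nearest control, ended below those of D, E and F, but these intervals cover counting error only. The values of A and C rested on 17 and 14 Hbb-bh1 counts. The means were 1.26 ± 1.39% in control and 7.32 ± 0.831% in Ybx1-KO NPCs (SD, n = 3 each). This ratio was chosen after its values were seen and uses the contrast that chose the genes, so it was given no test. In this ratio B stood away from the Ybx1-KO libraries, and it also stood above A and C.

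**Figure D3:**
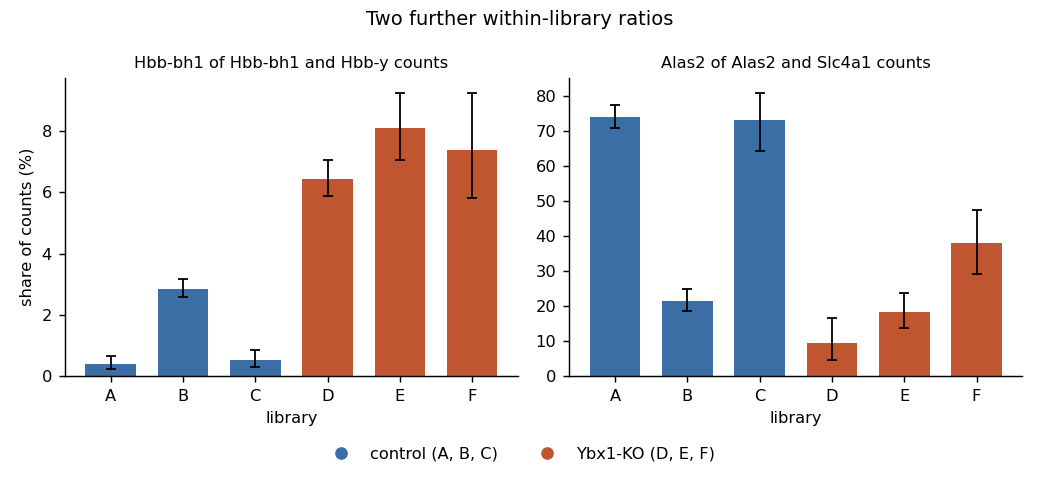
Share (vertical, % of counts) of Hbb-bh1 among Hbb-bh1 and Hbb-y counts (left) and of Alas2 among Alas2 and Slc4a1 counts (right) in each library, with 95% exact Clopper-Pearson intervals, controls A to C in blue and Ybx1-KO D to F in orange. On the left the Ybx1-KO bars lie between 6.45 and 8.11% and the controls at or below 2.86%, and on the right A and C stand at 74.2 and 73.3% with B at 21.6%.

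Among the 2 erythroid genes, Alas2 made up 74.2% of their joint counts in A (70.9 to 77.4), 21.6% in B (18.5 to 25.0) and 73.3% in C (64.3 to 81.1). The Ybx1-KO libraries had 9.43% in D (4.62 to 16.7), 18.3% in E (13.6 to 23.8) and 37.9% in F (29.1 to 47.4). This balance again placed A and C apart from the other 4, with B between E and F. Within the adult pairs the balance did not follow that order. Hbb-bt made up 27.9% of the adult beta-like counts in A, 43.2% in B, 34.1% in C, 58.9% in D, 25.6% in E and 48.5% in F, and Hba-a2 between 23.7% in D and 35.6% in F of the adult alpha-like counts.

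The total of globin RNA followed neither genotype nor the embryonic share. Summed over the 7 globins, the level was 1192 CPM in A, 978 in B and 519 in C, compared with 1233 in D, 485 in E and 194 in F. D and A, with 94.3 and 19.4% embryonic beta-like counts, held about the same total. The means were 896 ± 344 CPM in control and 637 ± 536 in Ybx1-KO NPCs (SD, n = 3 each), and the mean log2 difference of -0.79 was smaller than its pooled SD of 1.04. It was -0.13 without library F. Summed adult globins were at 941 CPM in A, 52.3 in B and 337 in C, compared with 139.7 in D, 18.4 in E and 18.0 in F. Summed embryonic globins were at 250.4 CPM in A, 926 in B and 181 in C, compared with 1093 in D, 466 in E and 176 in F.

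Levels can be compared between genes only per length, as FPKM, which divides by exon length and library total. In every library but A and C, Hbb-y was highest of the 9 and Hba-x next, at 789 and 335 FPKM in B, 1247 and 312 in D, 267 and 163 in E, and 296 and 62.7 in F. In A, Hbb-bs led with 785 FPKM, ahead of Hbb-bt at 331 and Hbb-y at 316, and in C Hbb-bs at 227 stood close to Hbb-y at 198. Hbb-bh1 came next in B, D, E and F, at 24.0, 88.8, 24.4 and 24.4 FPKM, and last in A with 1.33 FPKM. Alas2 and Slc4a1 were below all globins in B, D and F. In control NPCs, Hbb-y at 434 ± 313 and Hbb-bs at 343 ± 396 FPKM did not differ beyond their spread (SD, n = 3), and Hbb-bs was the higher of them in A and C but not in B. Hbb-y was above Hba-x in each of the 6 libraries, with Ybx1-KO means of 604 ± 558 and 179 ± 125 FPKM (SD, n = 3). The alpha-like genes together reached 193 FPKM in A, 362 in B and 99.5 in C, compared with 433 in D, 172 in E and 79.2 in F. The beta-like genes exceeded them in every library, with 1433, 848, 554, 1407, 300.0 and 340.0 FPKM in A to F. Exon lengths were not corrected for stretches shared between adult copies, whose pairs may have been counted on no gene. These totals and the ranks of adult genes are therefore uncertain.

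Other genes of the red cell were then examined in 4 lists, of erythroid transcription factors, heme and iron, red cell membrane and enzymes, and globin switching. Of 93 genes listed, 91 were in the tables and 72 were tested. edgeR and limma-voom called 0 of these 72, and DESeq2 called 1, Slc2a1, against 1.00% of all genes. At an unadjusted p below 0.05, 7 were higher and 4 lower in Ybx1-KO NPCs, 15.3% of the 72, near the 11.2% of all genes tested. Groups did not overlap in 6 that were higher and 6 that were lower, against 4.99 and 8.16% of all genes tested.

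The factors that define the erythroid lineage were barely detected. Gata1, its master regulator, had 3, 10, 2, 0, 10 and 3 counts in A to F, and Klf1, which activates adult beta globin, 7, 6, 0, 0, 3 and 7. Neither passed the filter, nor did Nfe2, Gfi1b and Lyl1. The 8 tested factors were mostly ones that neural cells also use. Gata2 was at 11.8, 21.01 and 8.23 CPM in the controls and at 79.3, 39.0 and 17.0 in D, E and F, a log2 fold change of 1.72 (SE 0.52, adjusted p = 0.362). Its lowest Ybx1-KO library, F, was below control B. Tal1, a basic helix-loop-helix factor, had a log2 fold change of 1.10 (SE 0.50, adjusted p = 0.444), and Zfpm1, the Gata1 cofactor, one of 1.06 (SE 0.69, adjusted p = 0.490). Of the others E2f2 was at 0.86, Cbfa2t3 at 0.23, Foxo3 at -0.05, Ldb1 at -0.13 and Lmo2 at -0.54. Without Ybx1-KO E edgeR called Gata2, against 1.97% of all genes, and with the filter then applied again also Tal1 and Bcl11a, against 3.89%.

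The 20 tested genes of heme and iron had 10 log2 fold changes above and 10 below 0 and a median of -0.01, against 61.3% above 0 and a median of 0.31 among all genes tested. Slc11a2, an iron importer, stood at 24.3, 34.4 and 23.4 CPM in the controls and 92.2, 55.3 and 33.5 in Ybx1-KO, with a log2 fold change of 1.14 (SE 0.42, adjusted p = 0.432). Ftl1, the light chain of the iron store ferritin, was lower in every Ybx1-KO library, at 245, 255 and 180.2 against 543, 315 and 713 CPM, with a log2 fold change of -1.21 (SE 0.47, adjusted p = 0.436). Among the enzymes that follow Alas2 in heme synthesis, Fech, which inserts the iron, was at -0.27 and Alad at 0.97, with Cpox at 0.73, Ppox at 0.33, Urod at 0.03 and Uros at -0.11. Alas1, the form of Alas2 used outside the red cell, was at 0.25. The mitochondrial carriers Slc25a38 and Abcb10 were at 0.89 and 0.55 and the iron importer Slc25a37 at -0.11. Further genes were the iron regulator Ireb2 at 0.31, the ferritin heavy chain Fth1 at -0.05, the transferrin receptor Tfrc at -0.43, Fam210b at -0.46, the heme oxygenase Hmox1 at -0.70 and the heme transporter Slc48a1 at -0.74.

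Of the red cell membrane and enzyme genes, 14 of 29 tested were above 0, with a median of -0.02, again beside 61.3% and 0.31 for all genes tested. Slc2a1, a glucose transporter also used across the brain, was higher in every Ybx1-KO library, at 66.8, 120.4 and 59.7 against 27.5, 39.0 and 41.1 CPM (log2 fold change 1.20, SE 0.40, adjusted p = 0.405). Bnip3l, which clears mitochondria from maturing red cells, was lower in each, at 41.2, 79.0 and 41.6 against 105, 114 and 124 CPM (log2 fold change -1.08, SE 0.40, adjusted p = 0.432). The band 3 partner Epb42 had its most counts in library F, at 55, where the receptor background was high. Car1, a red cell carbonic anhydrase, had 0 counts in A to E and 15 in F. Other members ran from -2.25 for the water channel Aqp1 to 4.36 for Alox15, whose 80 counts in F stood against 7 or fewer elsewhere and whose sign turned without F. Over the 4 lists, 25 of the 72 tested genes changed sign under at least 1 alternative.

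The genes known to act on globin switching held 15 tested members, 10 of them above 0, with a median of 0.37, near the 61.3% and 0.31 of all genes tested. Bcl11a, a repressor of embryonic beta-like globins that is also abundant in neurons, was at 273, 218 and 218 CPM in the controls and 92.5, 170 and 59.8 in Ybx1-KO. Every Ybx1-KO library was lower, at a log2 fold change of -1.14 (SE 0.45, adjusted p = 0.439). Its partner Sox6 was likewise lower in each, at -0.92 (SE 0.41, adjusted p = 0.444). Igf2bp1 and Lin28b, RNA-binding proteins of the fetal state, were at 1.31 (SE 0.49) and 0.87 (SE 0.47), and the groups overlapped in both. Igf2bp1 was at 35.2 CPM in A, 117 in B and 38.7 in C, compared with 177, 192 and 105 in D, E and F, so that A and C were lowest here too and B lay above F. Of the rest, Mbd2 was at 0.78, Nr2f2 at 0.72, Nr2c1 at 0.45, Myb at 0.37, Dnmt1 at 0.37, Chd4 at 0.32, Zbtb7a at 0.00, Igf2bp3 at -0.16 and Nr2c2 at -0.59. Of the minor globin genes, Hbb-bh2 had 12 counts in F and 0 in A to E, and Hbb-bh0, Hbq1a and Hbq1b had at most 10 in any library.

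**Figure D4:**
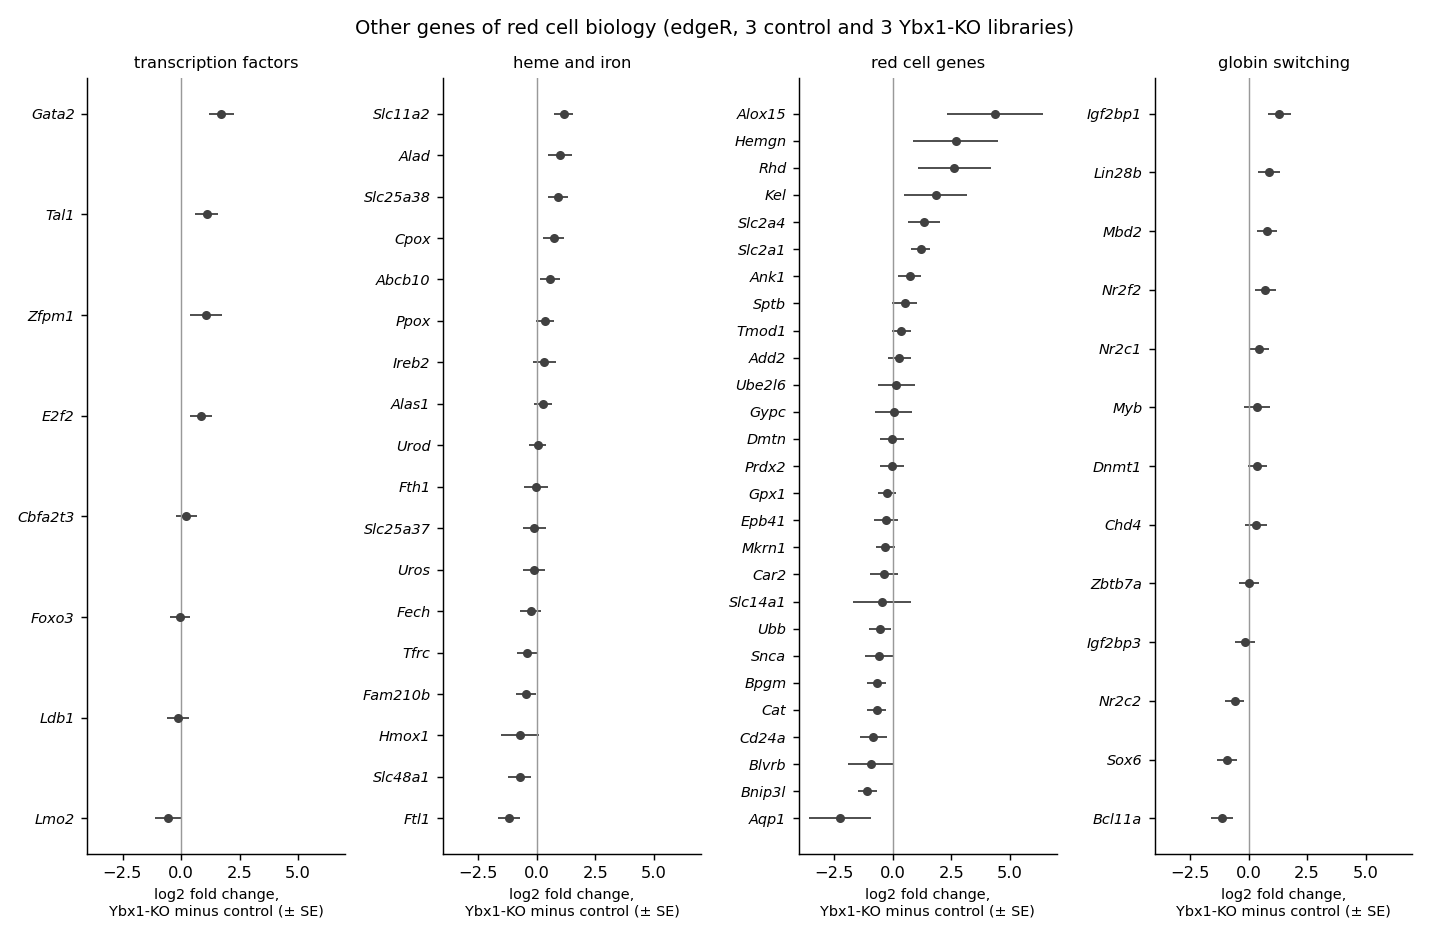
Log2 fold change, Ybx1-KO minus control (horizontal, with SE bars from edgeR, 3 libraries in each group), of the reported genes of 4 lists that were tested and had a mean of at least 10 counts per library, in order of size within each list. Most lie within 1.5 of 0, the widest bars belong to low-count genes such as Alox15 and Hemgn, and edgeR called 0 of them.

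Markers of other cells showed what else came with the blood. NPC markers were found in every library, at summed levels of 1510, 1463 and 1591 CPM in the controls and 1974, 1584 and 1159 in Ybx1-KO for the 8 listed. By mean CPM, which also rises with gene length, Fabp7 came first at 908, 469 and 895 against 855, 207 and 379 CPM, followed by Vim and Notch1, and Sox2, the sorted marker, was at 17.5 to 50.6 CPM. The 4 neuron markers, among which Dcx, Tubb3 and Map2 had the highest mean CPM, summed to between 863 CPM in F and 3660 in B, so the sorted cells also carried neuronal RNA.

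In some other lists A and C stood out as they did for the adult globins. The 5 mesenchyme and pericyte markers, most of them collagens and matrix proteins, summed to 629 CPM in A, 79.9 in B and 146 in C, compared with 57.9 in D, 79.8 in E and 42.9 in F, so A and C stood highest. By mean CPM Col3a1 came first, at 328 CPM in A, followed by Col1a1 and Dcn. Pdgfrb, the pericyte receptor on the list, had another order, highest in Ybx1-KO E, at 12.1 CPM in A, and slightly higher in B (7.07) than in C (6.76). All 5 had at least 3 counts in every library. Ttr, the thyroxine carrier made in liver and choroid plexus, was at 704 CPM in A, 38.6 in B and 951 in C, compared with 48.9, 56.4 and 19.7 in D, E and F. The other liver markers were low. Alb had 0, 24, 1, 0, 0 and 4 counts in A to F, Afp 6, 21, 6, 0, 0 and 35, and Apoa1 2, 3, 9, 2, 0 and 5, so that B and F, and not A and C, held the most Alb and Afp. The part of these cells in the globin shares was not tested.

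The 8 macrophage markers summed to 65.9 CPM in A, 12.0 in B and 19.7 in C, compared with 7.82 in D, 7.17 in E and 44.0 in F. Csf1r, Mrc1 and Ptprc had the highest mean CPM of this list, while C1qa, C1qb and Aif1 had 0 counts in D and Ptprc and C1qb in E. The 6 endothelial markers summed to 50.9, 23.4, 27.4, 13.4, 19.4 and 58.1 CPM in A to F, with Cdh5, Pecam1 and Kdr highest by mean CPM and none at 0. The 5 markers of megakaryocytes and platelets, other blood cells, summed to 9.26, 2.15, 5.39, 7.14, 5.30 and 18.2 CPM in A to F, and Itga2b, Gp1bb and Pf4 were highest by mean CPM. Ppbp had 0 counts in D and E, and Gp9 in B, D and E. F, where the receptor background was high, was among the highest in all 3 lists, and its Ptprc counts were 1.61 times that background. Outside F, A and C were highest in the macrophage and endothelial lists, as for the adult globins. In the list of megakaryocytes and platelets A and D were highest outside F. The part of these cells in the globin shares was not tested either. Over the 7 lists of other cells 29 genes were tested, and edgeR and limma-voom called 0 of them. DESeq2 called 4 (Nes, Snap25, Dcn and Lum), against 1.00% of all genes. At an unadjusted p below 0.05 in edgeR 5 of the 29 were higher and 7 lower in Ybx1-KO, against 11.2% of all genes in either direction.

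Genes with the most similar pattern over the 6 libraries were sought by Pearson r on log2(CPM + 0.5), among 19516 genes with a mean of at least 10 counts. With 6 points and so many genes, high values arise readily, and all share the libraries and their scaling. For the summed globins the closest were Kctd18 (0.9995), Abi1 (0.992), Gabrb2 (0.990), Adamts6 (0.988), Rsrc1 (0.987), Tm9sf3 (0.987), Picalm (0.986), Fbxo3 (0.985), Nampt (0.984) and Riok3 (0.980). Kctd18 went from 21.2 CPM in F to 41.5 in D and Gabrb2 from 5.83 to 26.1, where the summed globins went from 194 to 1233.

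Single globins were compared in the same way after their values had been seen. Closest to Hbb-bs were Ndufaf1, Map2k6 and Aasdhppt, with small swings. Neurod6, also among the first 10, a helix-loop-helix factor of cortical neurons, was at 498 CPM in A, 16.3 in B and 351 in C, compared with 21.3 in D, 3.53 in E and 4.69 in F (r = 0.987). Its order of libraries was that of Hbb-bs except at E and F, the lowest in both. Zbtb18 (0.980), a repressor in cortical progenitors and neurons, went from 298 CPM in A and 186 in C to 79.5 in B and 44.9 to 58.1 in Ybx1-KO. Epha5 (0.977), an ephrin receptor, Slc6a15 (0.978) and Hs6st2 (0.985) were also highest in A and C.

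The genes closest to Hbb-bh1 were low in A and C and highest in D. Pax5, a midbrain and hindbrain factor, was at 7.44 CPM in A, 62.9 in B and 6.86 in C, compared with 135, 52.5 and 54.3 in D, E and F (r = 0.988). Hoxa2, a hindbrain Hox gene, was at 4.89, 26.3 and 3.51 in the controls and 37.0, 33.6 and 19.5 in Ybx1-KO (r = 0.982). Ccnd1 (0.990), cyclin D1, Pax3 (0.982), a dorsal neural tube factor, and Nkx6-2 (0.986) had the same low values in A and C. In the genes named here control B lay well above A and C, and how far position along the neural tube or stage moves with the globin shares was not tested. Tfap2b (0.986) had the highest mean CPM of the 10 closest to Hbb-y, at 156, 359 and 134 CPM in the controls and 426, 199 and 147 in Ybx1-KO.

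**Figure D5:**
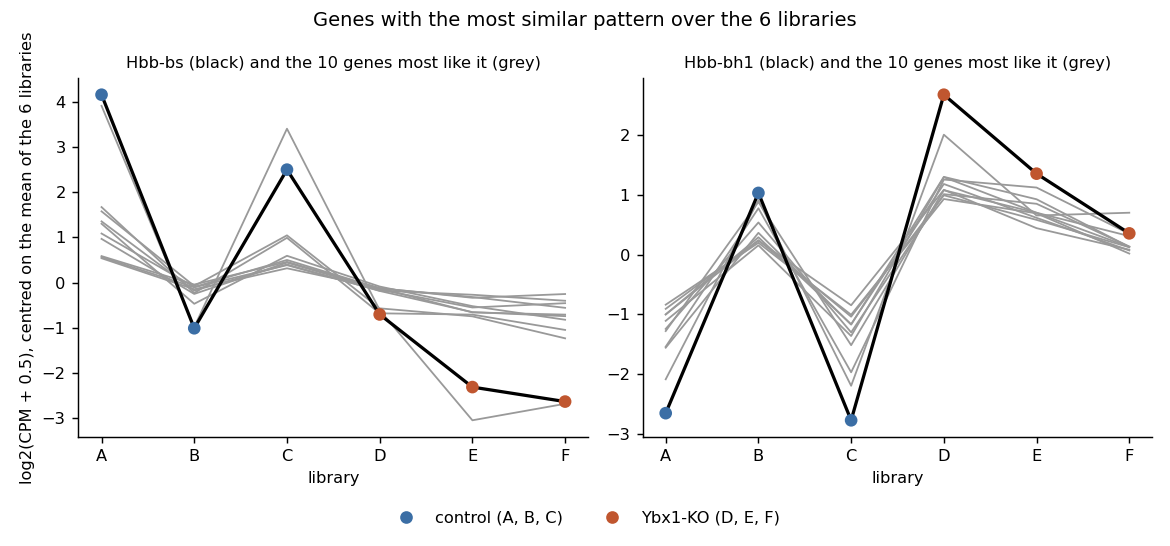
Values of log2(CPM + 0.5) centred on the mean of the 6 libraries (vertical) in each library (horizontal) for Hbb-bs (left, black) and Hbb-bh1 (right, black) and the 10 genes most like each (grey), with control points in blue and Ybx1-KO points in orange. A and C are high on the left and low on the right, and the grey line that follows Hbb-bs over its whole height is Neurod6.

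In the sample titles A and B share their first number, as do D and E, and the meaning of these numbers is not given in the sources used here. No number is shared between control and Ybx1-KO libraries, so siblings could not be matched across the groups. Whatever the numbers mark cannot be told apart from genotype. The embryonic beta-like shares were 19.4 and 95.2% in A and B, which share a number, and 94.3 and 96.8% in D and E, which share another. No library was a copy of another, since the lowest chi-square divided by its degrees of freedom over all pairs was 58.9, and each was kept as its own sample.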

How the data were processed

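Total RNA of NPCs sorted by a Sox2 reporter from E13.5 neural tubes was sequenced as stranded, paired-end libraries, 3 control and 3 Ybx1-KO. The authors counted read pairs per gene with HTSeq 0.6.1p1 and deposited raw counts by gene symbol, with no normalization, filter or pooling. The submitters' processing notes also name CASAVA and the builds mm10 and GRCm38.p5, and the study's methods name a GENCODE release without the letter M that marks mouse releases. The annotation behind the counts is thus uncertain, and the exon lengths used for FPKM may differ from it. The aligner and the strand setting of the counting are not given in the sources used here, so overlapping and antisense genes are uncertain. HTSeq's own tallies of pairs on no gene were left out of library sizes and tests, and pairs on genes made up 7.22 to 24.7% of all tallied. There were 0 unused columns.

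Groups came from the sample labels. The 9 genes and the gene lists were chosen with earlier results of these data known. Analysis used R 4.3.3 with edgeR 4.0.16, limma 3.58.1 and DESeq2 1.42.0, and Python 3.11.15 with matplotlib 3.10.9. A gene was tested if its mean FPKM exceeded 1 in control or Ybx1-KO, with lengths from the union of GENCODE M21 exons (GRCm38). Among 51733 symbols, lengths were found directly for 47624 and through older symbols for 359, and 3750 had none. edgeR's quasi-likelihood test with TMM and no covariate compared the groups, with Benjamini-Hochberg adjustment over all genes tested, and calls needed adjusted p-values under 0.05 with changes beyond 1.5-fold. The study itself used limma-voom, run here as an alternative. It reported genes up and down in Ybx1-KO at these thresholds, whereas the limma-voom run here called 0, and the reason was not examined. Tests were first tested on simulated data. Shares carry 95% Clopper-Pearson intervals, and a floor of 3 counts was used. Named genes were the 9, list genes of red cell biology with a mean of at least 10 counts (others were named for 0 or low counts after their values were seen), the 3 of highest mean CPM in each other list, further markers at 0, and the 10 genes most like the summed globins on log2(CPM + 0.5). Most genes of the red cell membrane and enzyme list are named in the plot of log2 fold changes rather than in the text, and a few listed genes are counted but not reported here by name. Comparisons with single globins and the Hbb-bh1, Alas2, Hbb-bt and Hba-a2 shares were added after the data were seen. Alternatives were limma-voom, DESeq2, total-count scaling, members left out of the scaling, other filters, counts per kilobase, other pairings of near-identical copies, and leaving out each library, and, added later, subtraction of the receptor background and reapplying the filter.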

Additional observations from a re-analysis of the deposited data

How the results depend on the processing

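No paired analysis was possible because no number in the titles joins a control with a Ybx1-KO library. In Ybx1-KO relative to control, DESeq2 called 118 genes up and 96 down, and edgeR without a filter on low counts 113 and 80, against 0 and 0. Leaving out a library gave 0 to 283 up and 0 to 137 down with the same filter, with calls when control B (29 and 42) or Ybx1-KO D (79 and 28), E (283 and 137) or F (29 and 22) was left out. With the filter applied again the range was 0 to 730 and 0 to 216, with 29 and 44 without B, 531 and 165 without D, 730 and 216 without E and 0 and 0 without F. Of the other red cell genes, DESeq2 called 1 (Slc2a1), and leaving out a library gave 0 to 1, or 0 to 3 with the filter applied again. The cause was not tested. limma-voom, total-count scaling, a filter on CPM and scaling without the 9 genes called 0, with 1655, 2255, 1640 and 2395 genes at an unadjusted p below 0.05. Under total-count scaling the median log2 fold change of all genes was 0.53 and under TMM 0.31. The difference in embryonic share stayed positive under every alternative run, at 42.4 to 55.0 points for beta-like genes and 26.8 to 27.8 for alpha-like genes with all libraries, and at 31.1 to 69.0 and 13.9 to 44.8 points with 1 left out. The summed globin difference ran from -1.46 without Ybx1-KO D to -0.13 without F. Reapplying the filter and subtracting the receptor background were added after the data were seen. Depth limited the Ybx1-KO libraries, where Alas2 in D rested on 10 counts.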
